A study of Homo sapiens with 4 samples.

Results

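The comparison set A549 cells against HCT116 cells, both transfected with NC1, the negative control RNA of the series, using the reagent Dharmafect1. A549 is a human lung cancer line and HCT116 a human colorectal cancer line. Of the 4 arrays of the series, the 2 labelled A549 NC1 and HCT116 NC1 were chosen by their titles, 1 array per line. The other 2 arrays held the same lines transfected with the microRNA miR-891b, and serve below as a second pair that differs in the transfected RNA. For each array, 100 ng of total RNA was labelled with the dye Cy3 and put on a 1-colour Agilent array of 60-base probes. The series concerns PSAT1, an enzyme of serine synthesis, and extracellular vesicle release, and the labels do not state a question for the comparison of the lines.

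A549 was grown in DMEM and HCT116 in McCoy's 5A, and both arrays of a line lay on the same slide, so line, medium and slide cannot be told apart. With 1 array per line, the difference has no replicate check and carries no p-value. Precision is limited throughout by this number of arrays.

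A cell line keeps part of the expression programme of its tissue of origin and adds what its mutations and years in culture brought. A549 is known to carry altered KEAP1, CDKN2A, SMARCA4 and STK11, and HCT116 altered CTNNB1 and PIK3CA. KEAP1 marks the transcription factor NRF2 for degradation, and NRF2 switches on genes of glutathione, thioredoxin, NADPH and carbonyl metabolism. CDX2 specifies intestinal epithelium and NKX2-1 lung epithelium, whereas GRHL2, OVOL and ESRP proteins keep epithelial cells in their sheet-forming state. These statements are background and were not measured here.

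A level below is the log2 processed signal of a probe relative to the 75th percentile of its array, and a difference is A549 minus HCT116. A gene was measured when at least 1 of its probes was well above background, by the scanner software's mark, on at least 1 of the 2 arrays. This held for 23817 genes. Of these, 19230 (80.7%) were well above background on both arrays, 3109 (13.1%) on A549 only and 1427 (5.99%) on HCT116 only, and 51 had probes that differed in detection. Of the array's 58201 gene probes, 26753 (46.0%) were well above background on HCT116 and 29136 (50.1%) on A549, where the lowest such level was also lower (-3.96 against -3.55). The part of this in the counts of dim genes was not tested. A gene dim on 1 array is given as a bound, from the bright array's level and the dim array's detection floor, which is its weakest signal marked as above background, or the dim probe's own signal if higher. Multiplied spots of 276 probes gave a median SD of 0.079 for a difference, which covers the spotting and not the cells or the labelling.

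The arrays differed widely. At least 2-fold differences numbered 4320 genes higher in A549 (18.1% of those measured) and 4442 higher in HCT116 (18.7%), or 36.8% in either direction. The other 63.2% were within 2-fold. Counts of the gene lists below were not tested against these shares. At least 4-fold differences numbered 2141 (8.99%) and 1931 (8.11%). At least 16-fold differences numbered 724 genes higher in A549 (3.04%) and 586 higher in HCT116 (2.46%), or 5.5% in either direction. The median over all genes was -0.03, with quartiles of -0.72 and 0.66. These counts rest on the measured signals. With each dim gene placed at its bound, 3373 and 4192 genes were at least 2-fold apart. With normexp background correction (offset 50) and quantile normalization, which compress weak signals, they were 1571 and 1710. Over probes well above background on both arrays only, 2135 genes were higher in A549 and 3111 in HCT116. Of 1125 genes past 2-fold with more than 1 probe detected on both arrays, 142 (12.6%) had probes of opposite sign. A gene's value below is that of its probe with the highest mean, unless other probes are named, and other probes can differ.

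The second pair of arrays gave much the same directions. Of genes past 2-fold towards A549, 92.1% were also higher in A549 on the miR-891b arrays, and 72.0% were at least 2-fold higher there. Of genes at least 2-fold higher in HCT116, these shares were 95.3% and 71.9%. For differences of at least 16-fold the direction was shared by 98.8% in each case. A limma fit over all 4 arrays, with a term for the line and one for the transfected RNA and 1 residual degree of freedom, had 3175 genes higher in A549 (13.3%) and 3356 higher in HCT116 (14.1%) at a Benjamini-Hochberg adjusted p under 0.05. That fit treats the pairs as repeats of the line difference, on the same 2 slides, and nothing in the labels says that they came from separate cultures. Its calls are given below as "passed the limma fit". With 1 residual degree of freedom it finds mainly large differences, so a gene that did not pass is not shown to be equal in the lines.

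**Figure D1:**
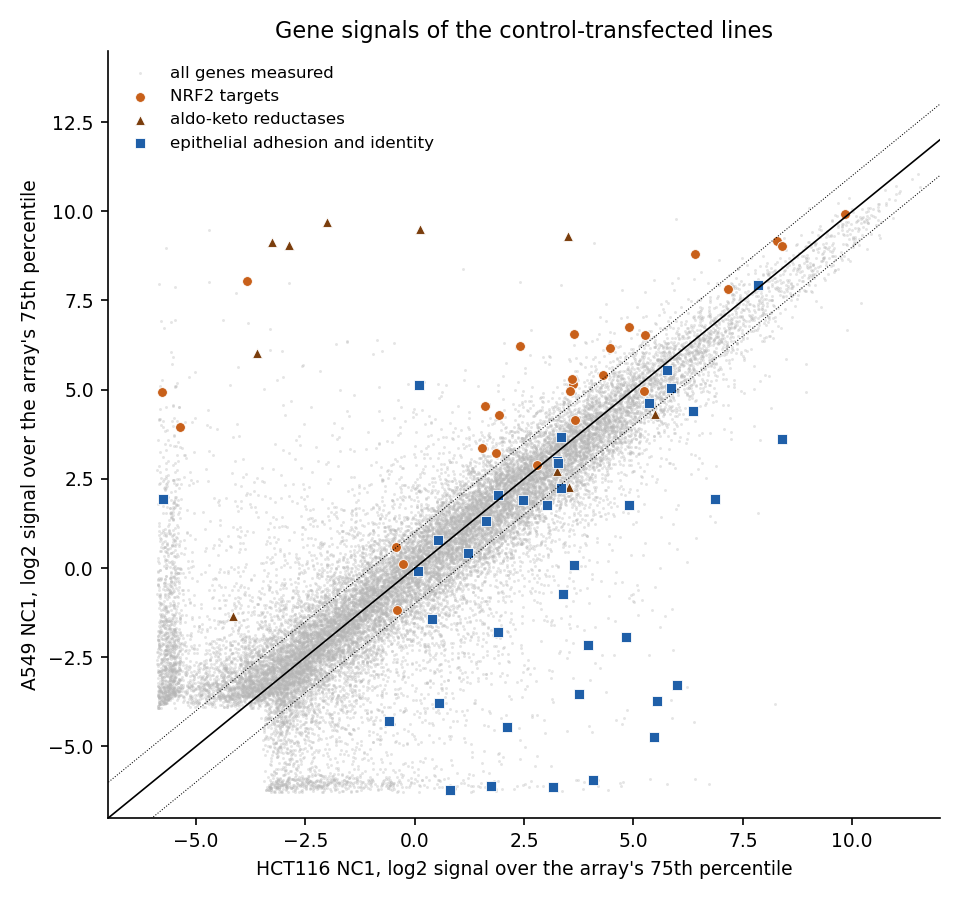
Log2 signal over the array's 75th percentile of every measured gene on the HCT116 NC1 array (x axis) and the A549 NC1 array (y axis), with 3 gene lists in colour. The solid line marks equal level and the dotted lines 2-fold. NRF2 targets and aldo-keto reductases lie mostly above the line (18 and 7 genes at least 2-fold higher in A549) and 23 of 38 epithelial genes lie at least 2-fold below it.

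The labels were set beside 4 marker genes. ALDH1A1, a retinal dehydrogenase, has 2 probes. The first was not well above background on HCT116 (-4.69) and reached 9.48 on A549, at least 8348-fold higher there. The second was well above background on both, at -2.68 and 6.35, a difference of 9.03. AKR1B10, an aldo-keto reductase that reduces retinal and lipid aldehydes, read -1.99 on HCT116 and 9.71 on A549, 3334-fold higher in A549. CDX2, the intestinal transcription factor, read 2.50 on HCT116 and -2.72 on A549, and the epithelial adhesion molecule EPCAM read 6.86 and 1.94, differences of -5.23 and -4.92. All 4 markers thus lay on the side of the line they were taken to mark, and all 4 passed the limma fit. They were chosen with earlier results of these data known, and the fit uses the same arrays. This is therefore no independent check of the labels.

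Markers of cell types that neither line should hold were in part detected. Of 5 leukocyte, 7 fibroblast and 5 endothelial genes, 3, 3 and 2 were measured, 1 had no probe and the rest were dim on both arrays. CD3E, COL1A2, COL3A1, DCN, PECAM1 and KDR were among those not well above background on either array. However, 2 fibroblast and 2 endothelial genes were well above background on both arrays. On HCT116 they reached 1.02 and -1.50. PTPRC was weak on both, at -2.01 on HCT116 and -1.47 on A549. CD14, a lipopolysaccharide co-receptor, read -2.44 and 1.38, and LUM, a matrix proteoglycan, was well above background on A549 only, at least 23.9-fold higher. All 5 erythroid and neuronal genes were measured, with 3 past 2-fold towards A549 and 1 towards HCT116. SNAP25, a protein of synaptic vesicle fusion, read -0.54 on HCT116 and 2.72 on A549. The part of these markers in other results was not tested.

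Targets of NRF2 were mostly higher in A549. Of 27 listed genes, all measured, 18 exceeded 2-fold towards A549 and 0 towards HCT116, with a median of 1.41 against -0.03 for all genes. On the limma fit 13 of the 27 passed, all higher in A549. The differences spanned a wide range, from CYP4F11 at -0.77 to GPX2.

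The glutathione branch ranged widely. GPX2, a glutathione peroxidase of gut epithelium, was not well above background on HCT116 (level -3.83) and read 8.05 on A549, at least 3089-fold higher. The subunits of glutamate-cysteine ligase, which starts glutathione synthesis, differed less. GCLC read 3.61 on HCT116 and 5.16 on A549, and GCLM 3.54 and 4.95. The cystine importer SLC7A11 read 3.59 and 5.30, a difference of 1.71 that recurred on the miR-891b arrays at 1.73. Glutathione reductase, GSR, differed by 0.49 and by -0.11 on the second pair. Of these 5 genes, GPX2, GCLM and SLC7A11 passed the limma fit.

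Enzymes of the pentose phosphate pathway and of NADPH supply were graded. PGD, an NADPH-making step, read 4.90 on HCT116 and 6.77 on A549, 3.66-fold higher. The non-oxidative enzymes TKT and TALDO1 differed by 0.89 and 0.67, and malic enzyme ME1 by 0.07, all within 2-fold. In the thioredoxin branch, the reductase TXNRD1 differed by 1.37 and sulfiredoxin SRXN1 by 1.11, whereas thioredoxin itself, TXN, differed by 0.61.

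Among detoxifying and transport genes, the quinone reductase NQO1 read 1.92 on HCT116 and 4.29 on A549, 5.15-fold higher. The carbonyl reductase CBR1 was not well above background on HCT116 and read 4.95 on A549, at least 361-fold higher. UGDH, which makes UDP-glucuronic acid, was 7.56-fold higher. The conjugate exporter ABCC3 was 14.1-fold higher by 1 probe and 1.36-fold by another. Another exporter, ABCC2, did not share this, at 5.23 on HCT116 and 4.96 on A549. HMOX1, haem oxygenase, was 3.28-fold higher in A549 on the NC1 arrays but read a difference of -0.11 on the miR-891b arrays. The ferritin chains also parted, with FTL at 2.39 and FTH1 at 0.10.

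The core of the antioxidant response element, the motif NRF2 binds with its small MAF partners, was searched as TGACNNNGC on both strands of the RefSeq promoter windows (GRCh38.p14, 250 bases before to 50 after the gene start). It was present in 8 of 21 NRF2 targets with a window (38.1%), against 15% of all 12799 measured genes with one. The sites before the start are shown for genes that span the range of differences, with the motif, on either strand, in capitals. GPX2 is at chr14:64942849-64942877 (minus strand), CBR1 at chr21:36069855-36069883 (plus), PGD at chr1:10398853-10398881 (plus), GCLM at chr1:93909446-93909474 (minus), TXNRD1 at chr12:104215670-104215698 (plus) and ME1 at chr6:83431170-83431198 (minus). MDFI at chr6:41636982-41637010 (plus) and S100A14 at chr1:153616535-153616563 (minus), both far higher in HCT116, are added for contrast, S100A14 with 1 of the 2 sites in its window.
GPX2: acctgtttttGCTAAGTCAtcctggggat
CBR1: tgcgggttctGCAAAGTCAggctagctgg
PGD: cctcgccgggGCAATGTCAtctaggtgct
GCLM: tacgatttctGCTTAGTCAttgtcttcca
TXNRD1: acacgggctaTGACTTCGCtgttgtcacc
ME1: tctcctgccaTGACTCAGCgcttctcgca
MDFI: cccgtccgggTGACTCAGCccgtgccagg
S100A14: tctttctctgTGACTCTGCatgctgatcg

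The same letters thus occurred across the whole range of differences. ME1 and MDFI hold the identical 9 bases, and their differences were 0.07 and -6.97. The listed NRF2 targets with the motif had a median of 1.39 and those without it 1.11. Across all genes the motif was no more frequent at the extremes, in 13.7% of promoters at least 16-fold higher in A549, 13.7% of those at least 16-fold higher in HCT116 and 15.7% of those within 2-fold. A match is not evidence of binding, and windows of this length leave out distal elements.

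Aldo-keto reductases, which reduce aldehydes and ketosteroids with NADPH, were the most strongly shifted list. Of 12 listed, 10 were measured, 7 exceeded 2-fold towards A549 and 2 towards HCT116, with a median of 7.61. The 1B and 1C subfamilies carried all the large values. AKR1C1 read -2.86 on HCT116 and 9.06 on A549, and AKR1C3, which reduces prostaglandin and steroid ketones, 0.12 and 9.52. AKR1C4 was dim on HCT116 by each of its probes. By its brighter probe it was at least 762-fold higher in A549. By the other, which read -1.61 on A549, it was at least 3.83-fold higher. AKR1B1, the aldose reductase of the polyol pathway, read 3.50 and 9.32. AKR1C transcripts are near-identical in sequence and may share signal. The probes of AKR1C1 and AKR1C3 were at most 50% identical to any probe of the other 1C genes compared, over overlaps of 30 or more bases. The brighter AKR1C4 probe was 73.3% identical to a probe of AKR1C8P over 60 bases. Probes were compared with probes and not with transcripts, so this cannot tell whether signal is shared.

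The AKR1B10 and AKR1B15 pair read differently between the pairs of arrays. AKR1B15, a close neighbour of AKR1B10 on chromosome 7, read -3.26 on HCT116 and 9.14 on A549. On the miR-891b array of HCT116 both were far brighter, at 2.06 for AKR1B10 and 1.28 for AKR1B15, so their differences there were 7.53 and 7.67 in place of 11.70 and 12.40. Whether the probes of AKR1B10 and AKR1B15 share signal was not tested, so their values may not be independent. AKR1E2, of a further subfamily, was dim on HCT116 and weak on A549 (-1.36), at least 4.57-fold higher. AKR7A2 and AKR7A3, which reduce aflatoxin dialdehyde, lay the other way, at -1.16 and -1.26, and AKR1A1 was within 2-fold at -0.51.

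Aldehyde dehydrogenases did not move as a group. Of 19 listed, 16 were measured, 4 exceeded 2-fold towards A549 and 2 towards HCT116, and 10 were within 2-fold. Over all measured genes the shares were 18.1%, 18.7% and 63.2%. Besides ALDH1A1, ALDH3A1 read -1.56 on HCT116 and 6.33 on A549, ALDH3B1 -0.63 and 3.57, and mitochondrial ALDH2 2.90 and 4.67. ALDH1A3, which like ALDH1A1 makes retinoic acid, lay the other way at 5.22 and 0.37. Other retinoid genes were similarly divided. STRA6, the cell-surface receptor for retinol carried in blood, was 333-fold higher in A549. CRABP2 and RBP7, which carry retinoic acid and retinol inside the cell, were 220.1-fold and 143-fold higher in HCT116, although a second, weaker CRABP2 probe differed by only 0.17.

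Cytochromes P450 and conjugating enzymes were mixed. Of 32 listed, 28 were measured, 12 exceeded 2-fold towards A549 and 5 towards HCT116. GSTM3, a glutathione transferase, was dim on HCT116 and at least 106-fold higher in A549. CYP3A5 read -2.59 on HCT116 and 2.0 on A549, and CYP1B1 -0.04 and 4.22. CYP1A1, an aryl hydrocarbon receptor target like CYP1B1, lay the other way, at least 6.76-fold higher in HCT116. The sterol enzymes CYP27A1 and CYP51A1 parted as well, with CYP27A1 at least 9.62-fold higher in HCT116 and CYP51A1 at 0.06. GSTP1 and CYP2W1 were bright on both arrays, at 9.54 and 9.72 for GSTP1 and 9.67 and 9.55 for CYP2W1.

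Gut transcription factors were divided between the lines. Of 17 listed, 15 were measured, 7 exceeded 2-fold towards A549, the lung line, and 4 towards HCT116. The median was 0.69, but 0.24 with the 5 genes dim on HCT116 at their bound and 0.01 on the miR-891b arrays. At the bounds, 5 factors were past 2-fold towards A549, and of the 10 detected on both arrays 2 were, against 4 towards HCT116. Besides CDX2, the factors higher in HCT116 included EHF and SOX9, at -1.15 and -1.11. ELF3, a factor of epithelial differentiation, read 3.14 on HCT116 and 4.76 on A549. HNF4A was near the detection floor on the A549 NC1 array (-3.59) and not well above background on the other 3 arrays. CDX1 and GATA6 were within 2-fold, at -0.28 and -0.26.

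Differentiated intestinal genes included several detected on A549 only. Of 25 listed, 11 were not well above background on either array, among them FABP1, SI, GUCY2C, OLFM4, LGR5 and the antigen GPA33. Of the other 14, 9 were well above background on A549 only, and these had to differ. Among the 5 detected on both arrays, 2 were past 2-fold towards A549 and 2 towards HCT116. CEACAM6, a carcinoembryonic adhesion molecule, read 6.73 on A549 and was at least 1241-fold higher there, and CEACAM7 at least 392-fold. TFF3, the trefoil peptide of goblet cells, was at least 205-fold higher. VIL1, the actin bundler of microvilli, was at least 67.5-fold higher, and the cadherin CDH17 at least 13.4-fold. KRT20 and CA2 were higher in HCT116, KRT20 at -0.76 against -2.59 and CA2 at 3.51 against 2.35. The KRT20 difference was -0.06 on the second pair.

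Lung factors were also divided. Of 15 listed, 11 were measured, 5 exceeded 2-fold towards A549 and 3 towards HCT116. The forkhead factors FOXA1 and FOXA2, shared by lung, liver and gut, read -1.39 and -2.97 on HCT116 and 2.56 and 4.30 on A549. SOX2, a factor of proximal airway and of stem cells, read -3.01 and 3.30. NKX2-1, the defining factor of lung and thyroid epithelium, was not well above background on A549 (-6.26) and read -1.34 on HCT116, at least 6.13-fold higher there. FOXF1, a factor of lung mesenchyme, was at least 11.9-fold higher in HCT116.

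Few alveolar and airway products were past 2-fold towards A549. Of 18 listed, 14 were measured, 13 of them well above background on both arrays. Of the 14, 2 exceeded 2-fold towards A549 and 5 towards HCT116. Over all measured genes the shares were 18.1% and 18.7%. The surfactant genes SFTPA1 and SFTPB, the phosphate carrier SLC34A2 and PDPN were not well above background on either array. SFTPC read -2.37 on HCT116 and -2.57 on A549, and the club cell protein SCGB1A1 -1.13 and -1.56. ABCA3, the lipid pump of lamellar bodies, was 4.27-fold higher in A549, whereas LAMP3, another lamellar body protein, was 11-fold higher in HCT116. SFTPA2 cannot be read. Its 2 probes nearly adjoin and gave levels of 2.87 and 2.07 on HCT116 and A549 in 1 case and -5.69 and -6.11, both not well above background, in the other.

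Liver-type secreted proteins were often detected on A549 only. Of 32 listed, 29 were measured, 22 exceeded 2-fold towards A549 and 2 towards HCT116, and 15 were well above background on A549 only, and so had to differ. Among the 13 detected on both arrays, 7 were past 2-fold towards A549 and 1 towards HCT116, with a median of 1.04. On the limma fit 21 passed as higher in A549 and 1 as higher in HCT116. The 3 fibrinogen chains stood together, with FGA, FGB and FGG at least 52.7-, 184- and 250.2-fold higher. The coagulation genes prothrombin (F2) and factor VII (F7) were at least 39.3-fold and 10.3-fold higher, but F10 was 4.52-fold higher in HCT116. Complement was represented by C3, at -1.73 on HCT116 and 3.67 on A549, and by C5, at least 179-fold higher. The lipoprotein-binding APOH was at least 404-fold higher. Transthyretin (TTR) was at least 13.6-fold higher, while albumin (ALB) and AFP were only -2.45 and -2.23 on A549, at least 2.15- and 2.5-fold higher. SERPINA1 and APOA1 were within 2-fold, at -0.76 and -0.58.

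Mucins and secretory cell genes leaned the same way. Of 15 listed, 13 were measured, 11 exceeded 2-fold towards A549 and 1, MUC20, towards HCT116, with 6 of them detected on A549 only. AGR2, a disulfide isomerase needed to fold mucins, was dim on HCT116 and 8.03 on A549, at least 3055-fold higher. The gel-forming mucins MUC5AC and MUC5B were at least 24.1- and 65.0-fold higher. SPDEF, the goblet cell transcription factor, read -1.99 and 2.98, and the trefoil peptide TFF1 -1.39 and 3.27. The transmembrane mucin MUC1 was 3.57-fold higher. The probes of MUC4, another transmembrane mucin, disagreed, from 7.76-fold higher in A549 to at least 3.31-fold higher in HCT116. MUC2, the main mucin of colon, was -2.27 on HCT116 and -1.55 on A549.

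Epithelial adhesion and identity genes were the list with the lowest median over all measured members. Of 38 listed, all measured, 23 were at least 2-fold higher in HCT116 and 2 in A549, with a median of -2.56 (-1.51 on the miR-891b arrays). Of the 38, 8 were well above background on HCT116 only, and so had to differ. Among the 29 detected on both arrays, 15 were past 2-fold towards HCT116 and 1 towards A549. Their median was -1.10, no longer the lowest, as Wnt targets detected on both arrays had -1.13. On the limma fit 22 passed as higher in HCT116 and 2 as higher in A549. The transcription and splicing factors of the epithelial state were dim or weak in A549. GRHL2 was not well above background on A549 and read 0.82 on HCT116, at least 27.3-fold higher. OVOL1 was at least 139-fold and OVOL2 at least 10.4-fold higher in HCT116. ESRP1 was at least 66.6-fold higher, and ESRP2 read 3.97 on HCT116 and -2.14 on A549.

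Apical trafficking and protease genes were also among the most different. MAL2, a protein of transcytosis, and the small GTPase RAB25 were dim on A549 and at least 683- and 260.0-fold higher in HCT116. RAB17, an epithelial GTPase of the same pathway, read 4.24 on HCT116 and -2.80 on A549, but its difference was -3.71 on the second pair. The membrane serine proteases PRSS8 and ST14 read 6.0 and 3.38 on HCT116 and -3.27 and -0.73 on A549. Their inhibitor SPINT1 read 3.76 and -3.53, whereas the related SPINT2 was bright on both arrays, at 7.84 and 7.94.

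Junction proteins fell into those that differed and those that did not pass 2-fold. CDH3, P-cadherin, read 5.53 on HCT116 and -3.72 on A549. CDH1, E-cadherin, read 3.25 and 3.01, a difference of -0.24 that was -0.23 on the second pair. The tight junction claudins CLDN3, CLDN4 and CLDN7 were 8.75-, 27.6- and 108-fold higher in HCT116. CLDN1 and CLDN2 lay the other way, CLDN1 at least 45.0-fold and CLDN2 33.0-fold higher in A549. The scaffold and plaque genes TJP1, OCLN, JUP and PKP2 were within 2-fold, at 0.34, -0.16, -0.23 and -0.31.

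Mesenchymal genes leaned towards A549 without being uniform. Of 27 listed, 24 were measured, 12 exceeded 2-fold towards A549 and 3 towards HCT116, with a median of 1.13. Of the 24, 6 were well above background on A549 only, and so had to differ. Among the 17 detected on both arrays, 6 were past 2-fold towards A549 and 2 towards HCT116, with a median of 0.56. VIM, the intermediate filament vimentin, read 1.1 on HCT116 and 8.37 on A549. CDH2, N-cadherin, was at least 154-fold higher and TGFBI, a secreted adhesion protein induced by TGF-beta, at least 2939-fold. The transcription factor ZEB1 read -0.63 and 2.73, and TWIST2 was at least 35.9-fold higher. SNAI1 lay the other way, at 2.66 on HCT116 and -0.03 on A549, and SNAI2 was not well above background on either array. Fibronectin (FN1) has a single probe, annotated to a single transcript, which may not stand for the whole gene. That probe was weak on A549, at -1.2, and at least 5.09-fold higher there. CD44, S100A4 and CALD1 were within 2-fold, at -0.23, 0.44 and 0.39.

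**Figure D2:**
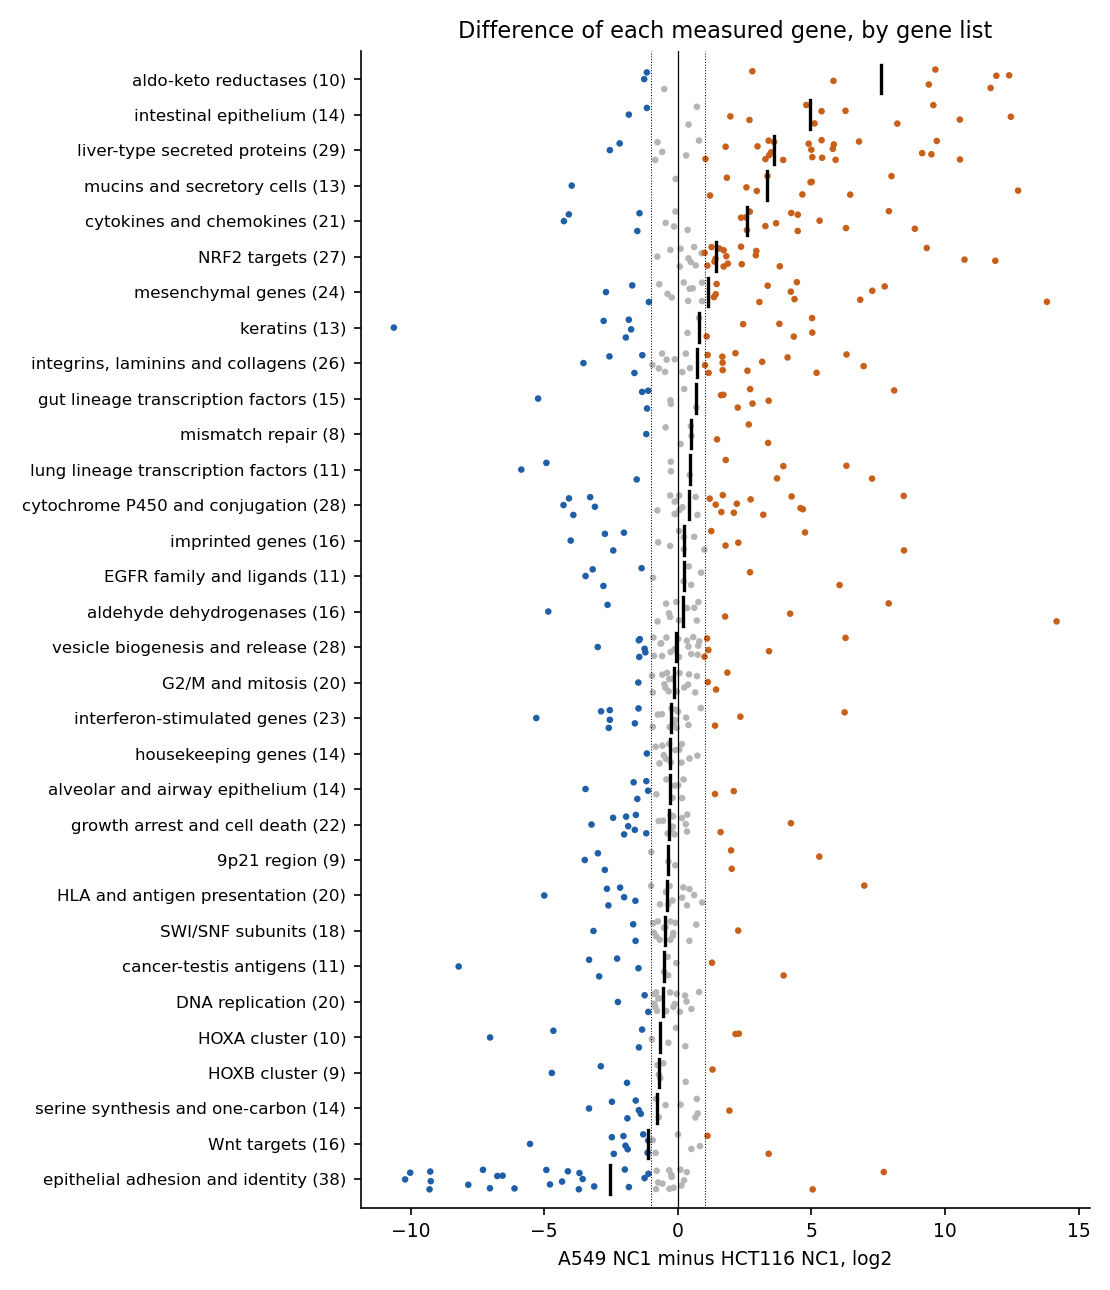
A549 NC1 minus HCT116 NC1 difference (x axis, log2) of each measured gene, by gene list, for lists with at least 8 measured genes (number in brackets), ordered by median (black bar). Orange points are at least 2-fold higher in A549 and blue points at least 2-fold higher in HCT116. Medians ran from -2.56 for epithelial adhesion and identity to 7.61 for aldo-keto reductases.

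Keratins differed by member. Of 20 listed, 13 were measured, 6 exceeded 2-fold towards A549 and 5 towards HCT116. KRT7, typical of lung and other glandular epithelia, read 4.09 on HCT116 and 9.11 on A549. KRT81 and KRT80 were 13.9- and 20.2-fold higher in A549. KRT23 was dim on A549 and at least 331-fold higher in HCT116, and KRT19 read 10.19 on HCT116 and 7.42 on A549. The simple-epithelial pair KRT8 and KRT18 was bright in both, with differences of 0.36 and 1.08. The basal keratins KRT5, KRT14 and KRT17 were not well above background on either array.

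Matrix and matrix receptor genes were more often higher in A549. Of 29 listed, 26 were measured, 13 exceeded 2-fold towards A549 and 4 towards HCT116. The collagen IV pair COL4A1 and COL4A2, which share a promoter region, were both higher, COL4A1 at least 34.4-fold and COL4A2 from -0.95 to 6.0. COL4A5 and COL4A6, the neighbouring pair on the X chromosome, were 3.2- and 17.2-fold higher. Of the laminin chains, LAMB1 and LAMC1 were 6.09- and 3.17-fold higher, while LAMB3, a chain of laminin-332, was within 2-fold at -0.48. COL6A1 lay the other way, at 5.71 on HCT116 and 2.18 on A549.

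Chemokines and cytokines were in part higher in A549. Of 29 listed, 21 were measured, 6 on A549 only, and 13 exceeded 2-fold towards A549 and 4 towards HCT116. CXCL1, CXCL2, CXCL3 and CXCL5, neutrophil chemokines encoded side by side on chromosome 4, were 22.5-, 19-, 9.7- and 239-fold higher. CCL2, which attracts monocytes, was at least 125-fold higher, and TGFB2 at least 18.2-fold. CXCL8 and IL6 were near the lower end of detection, at -1.04 and -2.87 on A549. BMP7 was 19.2-fold higher in HCT116. IL1A, TNF, CCL5 and CCL20 were not well above background on either array.

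Wnt pathway targets were more often higher in HCT116. Of 20 listed, 16 were measured, 9 were at least 2-fold higher in HCT116 and 2 in A549, with a median of -1.12. SP5, a direct beta-catenin target, read 2.35 on HCT116 and -3.18 on A549, and the pathway's factor TCF7L2 3.89 and 1.49. The feedback inhibitors AXIN2 and RNF43 differed less, at -0.83 and -1.13, and ZNRF3 was within 2-fold at 0.00. DKK1, a secreted inhibitor, was 1.11 on the NC1 arrays and -0.13 on the miR-891b arrays. Of the listed genes, 6 passed the limma fit as higher in HCT116 and 1 as higher in A549. LGR5, NOTUM and LEF1 were not well above background on either array.

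By the probe taken for each gene, the EGFR family differed in its ligands more than its receptors. Of 13 listed, 11 were measured, 2 exceeded 2-fold towards A549 and 4 towards HCT116, against 18.1% and 18.7% of all measured genes. EREG and AREG, neighbouring genes for epiregulin and amphiregulin, read 5.25 and 7.07 on HCT116 and 1.80 and 3.89 on A549. HBEGF was at least 6.88-fold higher in HCT116. NRG1, the ligand of ERBB3 and ERBB4, lay the other way, at -2.61 and 3.44. The receptors EGFR, ERBB2 and ERBB3 differed by 0.87, -0.93 and 0.22, and ERBB4 was not well above background on either array. Their other probes detected on both arrays differed by 2.13 and 0.09 for EGFR, -0.35 for ERBB2 and -1.26 for ERBB3.

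HOX genes, which record position along the body axis, differed by gene within each cluster. In the HOXA cluster 10 of 11 genes were measured, 2 at least 2-fold higher in A549 and 4 in HCT116. HOXA9 read 5.87 on HCT116 and -1.15 on A549, and HOXA11 was at least 19.4-fold higher in HCT116. HOXA2 and HOXA3, at the 3′ end of the cluster, were 4.47- and 4.88-fold higher in A549, and HOXA4 and HOXA5 between them were within 2-fold at -0.07 and 0.28. The HOXB cluster showed a like order. HOXB2 was 2.46-fold higher in A549, and HOXB8 and HOXB9 were 3.73- and 7.37-fold higher in HCT116. However, HOXB4 was 26.2-fold higher in HCT116 too, although a weaker HOXB4 probe differed by only -0.28. HOXC6 and HOXC8 were within 2-fold, at 0.46 and 0.70.

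**Figure D3:**
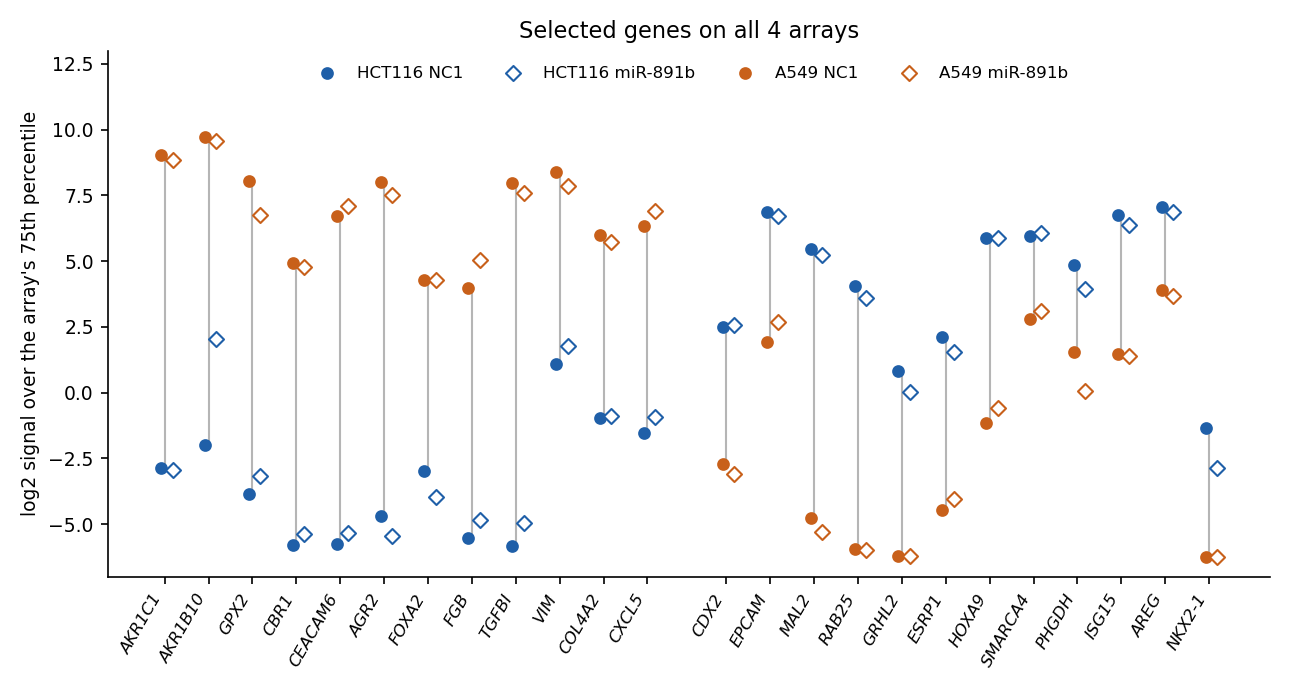
Log2 signal over the array's 75th percentile (y axis) of 24 genes on all 4 arrays: NC1 as filled circles joined by a grey line, miR-891b as open diamonds, HCT116 in blue and A549 in orange. Genes higher in A549 stand on the left and genes higher in HCT116 on the right. The lines stayed apart on both pairs for all 24, and AKR1B10 had the widest gap between the HCT116 arrays (-1.99 and 2.06).

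The 9p21 region, which holds the CDK inhibitors CDKN2A and CDKN2B and the purine salvage enzyme MTAP, was read probe by probe, since probes of 1 gene disagreed. Coordinates are hg19 as in the scanner files. The first MTAP probe, at chr9:21802766-21815476, was well above background on both arrays, at 2.94 on HCT116 and 1.94 on A549. The second, at chr9:21837969-21854648, read 4.13 on HCT116 and was not well above background on A549 (-5.88), at least 271-fold higher in HCT116. The one after it, at chr9:21865830-21865889, read 5.35 and was again not well above background on A549 (-6.18), at least 631-fold higher in HCT116. The signal of MTAP on A549 was thus limited to its first probe.

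CDKN2A, which encodes p16 and p14ARF, showed a like split. The probe at chr9:21970901-21970960 read 3.51 on HCT116 and was not well above background on A549 (-6.12), at least 177-fold higher in HCT116. The probe at chr9:21968039-21968098 read 5.90 on HCT116 and 2.91 on A549, so signal remained there. CDKN2B, which encodes p15, read -2.73 on HCT116 and was not well above background on A549, at least 2.34-fold higher in HCT116. From the second MTAP probe to the last probe of the antisense RNA CDKN2B-AS1 that was well above background on HCT116 only, 281 kb, there were 11 probes. Of these 7 were well above background on HCT116 and 3 on A549.

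Outside this stretch signal was present on A549. KLHL9, on the telomere side, read 3.95 on HCT116 and 3.60 on A549, and FOCAD 5.11 and 5.02. DMRTA1, on the other side, was dim on HCT116 and -1.49 on A549. HACD4, listed on the array under an older name, was also well above background on A549 only, at least 9.68-fold higher. Of 13 interferon gene probes nearby, 11 were dim on both arrays. On the miR-891b arrays the later 2 MTAP probes again read 4.35 and 5.47 on HCT116 and were not well above background on A549. The CDKN2A probes did likewise (5.54 and 3.25 on HCT116, 2.50 and not well above background on A549), whereas CDKN2B was not well above background on either miR-891b array. Fewer gene copies and less RNA per copy cannot be told apart from these signals.

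**Figure D4:**
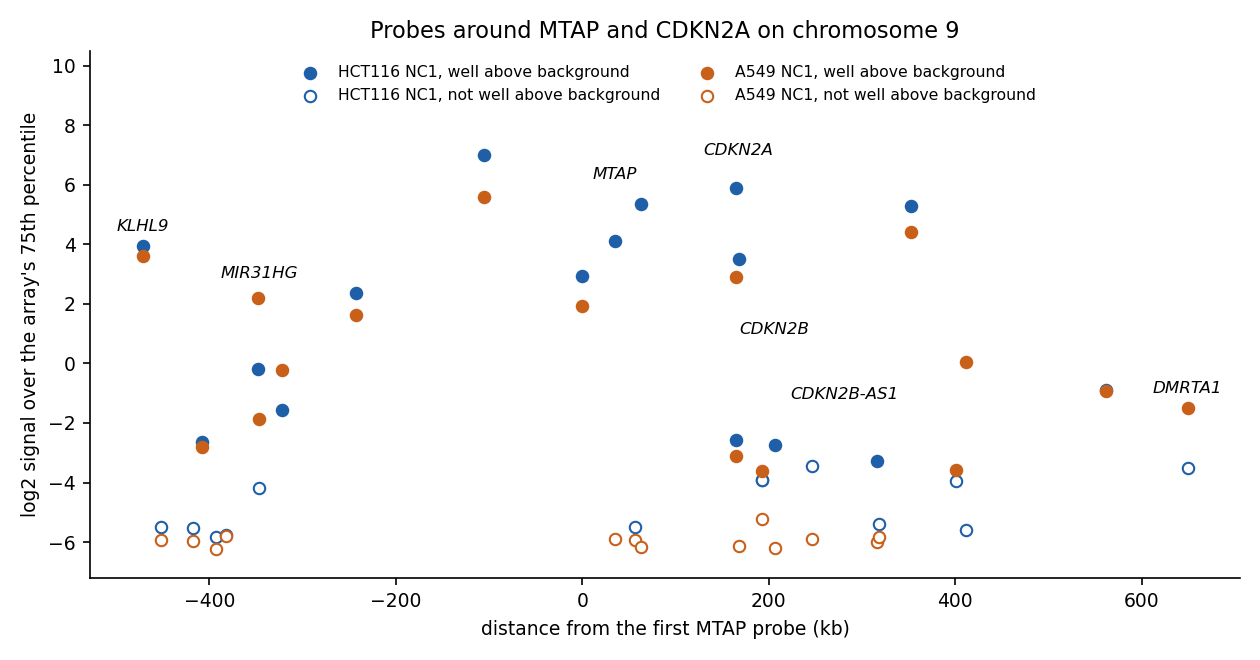
Log2 signal over the array's 75th percentile (y axis) of probes by distance from the first MTAP probe in kb (x axis), HCT116 NC1 in blue and A549 NC1 in orange, filled where well above background. From 35.2 kb onwards through CDKN2B-AS1 most A549 points are open and lie at the bottom, except 2.91 for 1 CDKN2A probe and 2 weak ones.

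Of the mismatch repair genes, 8 were measured, and 3 exceeded 2-fold towards A549 and 1 towards HCT116. MSH3, which recognises loops of unpaired bases, read -1.05 on HCT116 and 2.33 on A549. Another MSH3 probe was within 2-fold, at 0.86. MSH6 and PMS2 were within 2-fold, at 0.51 and 0.49, and PMS1 was 2.27-fold higher in HCT116.

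Of 18 SWI/SNF subunits, 14 were within 2-fold, against 63.2% of all measured genes. SMARCA4, the BRG1 ATPase, read 5.96 on HCT116 and 2.80 on A549, 8.92-fold higher in HCT116. Its alternative ATPase SMARCA2 lay the other way, at -1.40 and 0.86. SMARCD2 and SMARCC1 were 3.18- and 2.99-fold higher in HCT116. All 4 passed the limma fit. By the probe taken for each, the DNA-binding subunits ARID1A, ARID1B and ARID2 were within 2-fold. Other ARID1B probes were 2.01- and 2.5-fold higher in A549 or, at -0.41, within 2-fold.

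Of 22 listed genes of growth arrest and cell death after DNA damage, 8 were at least 2-fold higher in HCT116 and 2 in A549. Over all measured genes the shares were 18.7% and 18.1%. The cell cycle inhibitor CDKN1A read 1.11 on HCT116 and -0.82 on A549, and the cytokine GDF15 8.94 and 5.71. The death gene BBC3 was 5.36-fold higher in HCT116. MDM2, BAX and FAS were within 2-fold. SPATA18, a gene of mitochondrial quality control, lay the other way, at least 12-fold higher in A549.

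Cell cycle genes were mostly within 2-fold on the NC1 arrays and lower in A549 on the second pair. Of 20 G2/M genes, 16 were within 2-fold, with a median of -0.13, against -1.85 on the miR-891b arrays. Of 20 DNA replication genes, 17 were within 2-fold, with medians of -0.56 and -2.16. The difference of MKI67 was -0.50 on the NC1 pair and -2.13 on the miR-891b pair, and that of MCM2, a subunit of the replicative helicase, -0.90 and -3.18. CDT1, which loads that helicase, was 4.73-fold higher in HCT116. TOP2A, ASPM and KIF11 were the 3 G2/M genes at least 2-fold higher in A549, and CDC20 the 1 at least 2-fold higher in HCT116. On the second pair these 3 were -0.19, -0.43 and -0.69, on the other side of equality.

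Serine synthesis and one-carbon genes, the pathway of PSAT1, were in part higher in HCT116. Of 14 listed, all measured, 6 were at least 2-fold higher in HCT116 and 1 in A549, and all 6 passed the limma fit. PHGDH, the first enzyme from glycolysis to serine, read 4.86 on HCT116 and 1.54 on A549. PSAT1, the next step, read 6.22 and 5.76, within 2-fold. PSPH, the last step, read 5.58 and 4.0. The mitochondrial folate enzymes SHMT2, MTHFD2 and MTHFD1L were 2.75-, 3.7- and 2.61-fold higher in HCT116, while cytosolic SHMT1 and MTHFD1 were within 2-fold at 0.66 and 0.10. GLDC, which breaks down glycine, was 3.81-fold higher in A549 but 0.41 on the second pair.

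Vesicle genes showed no common direction. Of 28 listed, 17 were within 2-fold, 5 exceeded 2-fold towards A549 and 6 towards HCT116. This is near the shares over all measured genes, 63.2%, 18.1% and 18.7%. RAB27B, a GTPase of vesicle docking, read -0.80 on HCT116 and 2.61 on A549, and its relative RAB27A -1.47 and -0.47. Of the tetraspanins, CD9 was 2.72-fold higher in HCT116 and CD63 and CD81 were within 2-fold. The ESCRT genes TSG101, VPS4A and CHMP4B were within 2-fold, and HGS was 2.32-fold higher in HCT116.

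Of the measured antigen presentation and interferon genes, 13 of 20 and 13 of 23 were within 2-fold, near the 63.2% of all measured genes. Some single differences were large. Of 20 measured HLA and processing genes, 6 were at least 2-fold higher in HCT116 and 1 in A549. HLA-B was 4.03-fold higher in HCT116. The probe taken for HLA-C by its mean level lies at the HLA-B position and shares 41 bases with an HLA-B probe, so it cannot be told apart from that gene. A probe at the HLA-C position (chr6:31236617, hg19) read 7.94 on HCT116 and 5.07 on A549, 7.31-fold higher in HCT116, and B2M was within 2-fold at 0.16. PSMB8, a subunit of the immunoproteasome, was dim on HCT116 and at least 31.4-fold higher in A549, whereas its partner PSMB9 was within 2-fold at 0.21. Of 23 measured interferon-stimulated genes, 7 were higher in HCT116 and 3 in A549. ISG15, a ubiquitin-like protein, read 6.75 on HCT116 and 1.46 on A549. OAS1, which senses double-stranded RNA, was dim on HCT116 and at least 39.9-fold higher in A549. IFIT2 and OAS3 were within 2-fold, at -0.24 and 0.31.

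Cancer-testis genes were often dim on both arrays. Of 28 listed, 12 were dim on both, 5 had no probe under their name and 11 were measured, 2 at least 2-fold higher in A549 and 5 in HCT116. MAGEB2 read 5.91 on HCT116 and -2.29 on A549. MAGEA4 and MAGEA12 were 7.69- and 4.83-fold higher in HCT116, and PRAME 2.43-fold higher in A549. Outside the list, XAGE1B was dim on HCT116 and at least 1382-fold higher in A549, and GTSF1, a germline factor of the piRNA pathway, was dim on A549 and at least 1642-fold higher in HCT116.

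Several genes with large bounds towards A549 belong to none of the lists. UCHL1, a neuronal deubiquitinase, was not well above background on HCT116 and read 8.98 on A549, at least 5884-fold higher. For TM4SF1, FXYD2, INSL4, a placental insulin-like peptide, and NNMT, which methylates nicotinamide, the bounds were 2767-, 1441-, 1435- and 1409-fold. Among genes well above background on both arrays, BASP1 read -2.88 on HCT116 and 8.0 on A549, HGD, an enzyme of tyrosine breakdown, -3.02 and 6.10, and IGFBP3 -2.57 and 5.67.

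In the other direction, ADIRF had the lowest difference among genes detected on both NC1 arrays, at 8.24 on HCT116 and -3.80 on A549. RAMP1, a receptor partner of the calcitonin family, read 6.22 and -3.33, and the kallikrein protease KLK6 5.87 and -3.68. KLK8, a kallikrein next to KLK6, was dim on A549 and at least 1313-fold higher in HCT116. On the HCT116 array, 13.6% of the spots around it showed signal that the other 3 arrays lacked. On the second pair KLK8 was again well above background on HCT116 (6.41) and not on A549. UCA1, a long noncoding RNA, S100A14, a calcium-binding protein of epithelia, and NTSR1, the neurotensin receptor, were at least 1299-, 920.0- and 845-fold higher in HCT116.

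Neighbouring genes were compared in windows of 11 consecutive measured genes. The window with the highest median lay at chr15:25207266-25310269 (hg19) and held SNURF, SNRPN and the small nucleolar RNA genes that follow, an imprinted block expressed from the paternal copy. All 11 genes there were well above background on A549 only, and the median of the measured differences was 6.26 (5.80 on the miR-891b arrays). These are set against background signals on HCT116. With the genes at their bounds the median was 4.03, and 9 of the 11 were past 2-fold. SNURF read 3.85 on A549 and not well above background on HCT116, and SNRPN 2.78, at least 80.4-fold higher. These genes overlap on 1 transcription unit, so they are not independent. The next window, chr15:25321109-25746393, continued it through the SNORD116 copies and IPW to UBE3A, with a median of 4.90 (2.74 at the bounds) and 8 of 11 genes at least 2-fold higher in A549.

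Other imprinted genes did not share a direction. MEG3, the maternally expressed RNA of chromosome 14, read -2.53 on HCT116 and 2.23 on A549. In windows of 21 genes, the block that follows MEG3 at chr14:101327286-101455537 had a median of 3.27, with all 21 genes at least 2-fold higher in A549. At their bounds the median was 1.67 and 13 were past 2-fold. PEG10 was 4.8-fold higher in A549 too. CDKN1C, PHLDA2 and IGF2, all on the short arm of chromosome 11, were 16.1-, 6.62- and 5.34-fold higher in HCT116, and H19 was within 2-fold.

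By measured signals, the window with the lowest median lay at chr11:5246718-5461864 and held the beta-globin genes and the olfactory receptor genes beside them, with a median of -4.04 (-5.04 on the miR-891b arrays). HBE1, embryonic globin, read 4.61 on HCT116 and was not well above background on A549, at least 379-fold higher in HCT116. HBG1, fetal globin, read 2.97 and -0.16 by 1 probe, but a probe overlapping it read 2.87 on HCT116 and was not well above background on A549. OR51B5 read 2.68 on HCT116 and was not well above background on A549. HBB, the adult gene at the near end, lay the other way, at least 9.73-fold higher in A549. The other low windows lay at chr6:46097254-46967904, with ENPP4, ENPP5, RCAN2 and GPR110 (median -4.04), and at chr2:220506385-221605395, around SLC4A3 (median -3.79). With dim genes at their bounds the order changed, with medians of -2.89 on chromosome 11, -3.19 on chromosome 6 and -2.58 on chromosome 2.

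**Figure D5:**
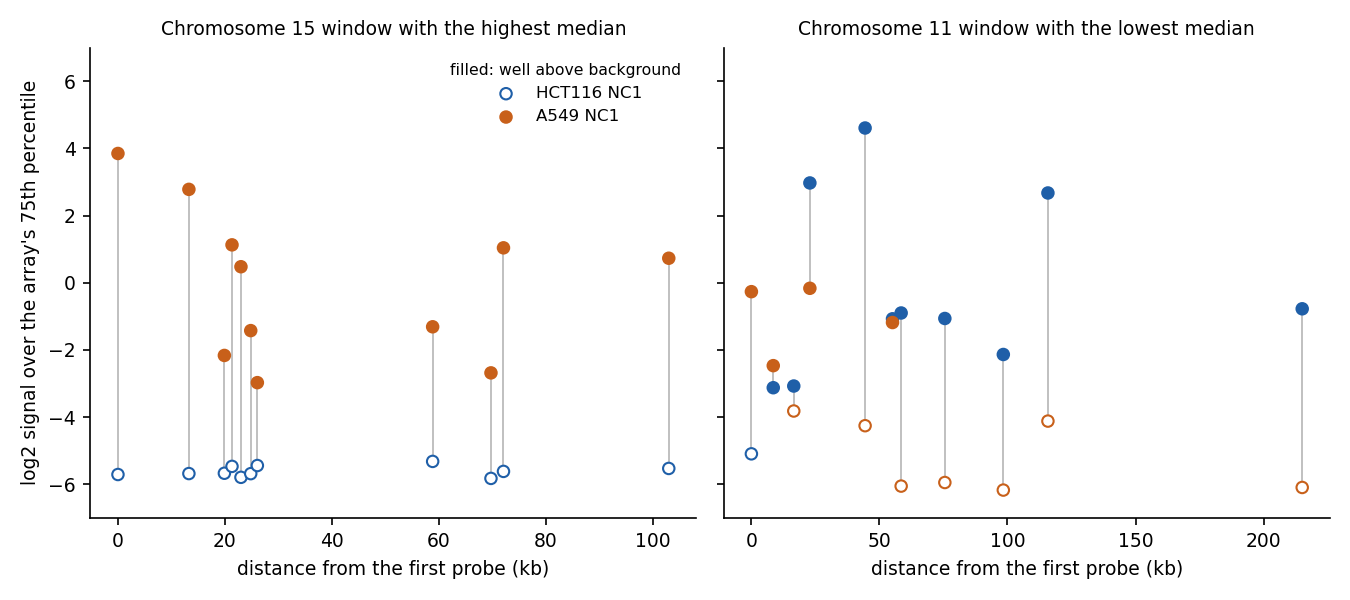
Log2 signal over the array's 75th percentile (y axis) of the 11 genes of the highest window (chromosome 15, left) and the lowest (chromosome 11, right) by distance from the first probe in kb (x axis), HCT116 NC1 in blue and A549 NC1 in orange, filled where well above background. On the left all HCT116 points are open, and on the right HBE1 reaches 4.61 on HCT116.

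Windows of 7 genes brought out shorter gene families. The AKR1C cluster at chr10:4693388-5246455 had the highest median, 9.39, with 7 of 7 genes at least 2-fold higher in A549. The fibrinogen genes FGB, FGA and FGG led a window at chr4:155492029-156263949 with a median of 5.84 (5.72 at the bounds). The kallikrein cluster at chr19:51321674-51499375 had a median of -5.26 (-4.77 at the bounds). Whole chromosomes differed far less. Medians ran from -0.40 for chromosome 22 to 0.32 for the X chromosome. On chromosome 22, 29.9% of genes were at least 2-fold higher in HCT116 and 12% in A549, against 12.8% and 25.7% on the X chromosome. DNA copy number was not measured here.

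Promoters of the genes that differed most held fewer CpG sites. In the same RefSeq windows, the median count of CpG was 14 for 444 genes at least 16-fold higher in A549, 21 for 329 at least 16-fold higher in HCT116 and 25 for 8107 within 2-fold. Windows with fewer than 10 CpG made up 40.8%, 28.6% and 15.4%, and the median share of C and G was 58.7%, 65.0% and 64.3%. The CDX motif, searched as TTTATNG on both strands, was in 8.78%, 9.12% and 6.16% of windows, against 6.66% of all measured genes with a window and 10.1% of all 27305 windows of the table. This motif overlaps the TATA box, so a match near the start is not specific to CDX factors. The window of CDX2 itself held the motif at chr13:27969480-27969506 (GRCh38.p14, minus strand), shown with the motif in capitals because CDX2 is the marker gene that binds it.
CDX2: aagctcttaaCAATAAAggtttgaata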

How the data were processed

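The authors deposited the scanner output of Agilent Feature Extraction 11.5.1.1, per the file headers, for each 1-colour array, with background-corrected intensity per spot (the processed signal) and hg19 probe positions. The deposited value table holds log2 values of the same arrays and lay within a median of 0.0069 (HCT116) and 0.0050 (A549) of the values computed here. From the intensities, log2 minus the 75th percentile of the array's gene probes was taken, spots of a probe were averaged, and the probe with the highest mean stood for a gene among probes well above background on at least 1 NC1 array. Spots marked as outliers by the software (68 and 73) were left out, and 0 spots were saturated. Names are those of the array design: 21081 of 43317 are current RefSeq symbols and 1567 older ones. Genes named are those of 39 lists (687 genes), the 15 highest and 15 lowest differences among genes detected on both arrays, the 10 largest bounds each way, and genes of the 3 highest and 3 lowest windows. Members and lists were chosen with earlier results of these data known. Alternatives included other normalizations, filters and fold thresholds. The limma fit (limma 3.58.1, R 4.3.3) was tested on simulated data, where it recovered mainly the largest changes, and the rest used pandas 2.3.3 and numpy 2.4.6 under Python 3.11.15. A few genes within this rule are not reported here.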

Additional observations from a re-analysis of the deposited data

Results flagged for a closer look

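The A549 minus HCT116 difference lay on opposite sides of 0 in the NC1 and miR-891b pairs for 7 genes named above as measured, with 1 array per line in each pair, and the change between pairs was not tested. ABCC2, a conjugate exporter, differed by -0.28 on the NC1 arrays and by 1.16 on the miR-891b arrays. The haem oxygenase HMOX1 differed by 1.71 and -0.11, and the Wnt inhibitor DKK1 by 1.11 and -0.13. HNF4A gave 1.70 and -0.10, but it was not well above background on 3 of the 4 arrays, so neither its size nor its sign can be read. Of the mitotic genes, TOP2A differed by 1.85 and -0.19, ASPM by 1.43 and -0.43, and KIF11 by 1.12 and -0.69. Among the 308 negative control spots of each array, which match no transcript, 11 were well above background on the HCT116 miR-891b array and 2 on the A549 miR-891b array, against 0 on both NC1 arrays.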

How the results depend on the processing

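The counts of genes at least 2-fold apart were 4320 (higher in A549) and 4442 (higher in HCT116). They were 1571 and 1710 with normexp and quantile normalization, and 2141 and 1931 at a 4-fold threshold. At a 1.5-fold threshold 6922 genes were higher in HCT116, and over probes well above background on both arrays 2135 were higher in A549. With limma, 3175 and 3356 genes passed, of which 3101 and 3207 were among the 2-fold calls. Placing dim genes at their bound (3373 and 4192) and leaving out spots in areas of stray signal (4259 and 4293) were chosen after seeing the data. The median of the intestinal epithelium list was -0.095 with no filter on dim probes, where probes at background enter it. On the miR-891b arrays the differences of ASPM (-0.43), DKK1 (-0.13), HMOX1 (-0.11), KIF11 (-0.69) and TOP2A (-0.19) reversed, and the cause was not tested. The value of HNF4A there (-0.10) comes from signals not well above background and has no readable sign. The limma fit already sets the transfected RNA as a block, and each group holds 1 array, so replicate numbers pair nothing further. Signal near background limits the dim genes, for which only bounds are given.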
